A study of Mus musculus with 6 samples.

Results

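Complement components and regulators were described here through 8 genes: the C1q chains C1qa, C1qb and C1qc, the central component C3, the alternative pathway genes Cfb and Cfp, and the membrane regulators Cd55 and Cd59a. Members were the probes of the deposited value table whose platform gene symbol is 1 of these names, read through the brightest probe of a gene. Of the 8 listed genes, 7 had a probe, 1 each, among 19057 genes with a probe in the table, and C3 was not analysed here. The 3 TLR7tg mice carry a Tlr7 transgene and are used as a mouse model of systemic lupus erythematosus, and the 3 B6 mice are wild type (C57BL/6). All 6 RNA samples came from spleen, labelled as NK1.1+ cells in the TLR7tg mice and as NK cells in the B6 mice, although the series describes its whole design as one of NK1.1+ cells. The age of the mice, the transgene's promoter and the way the cells were isolated are not given in the sources used here.

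Complement is a cascade of plasma proteins that marks particles and immune complexes for removal. C1q, built from the A, B and C chains, recognises antibody on a surface and starts the classical pathway. Factor B (Cfb) forms the alternative pathway's convertase, properdin (Cfp) stabilises it, and CD55 and CD59 protect the body's own cells, CD55 by dissociating convertases and CD59 by blocking the membrane attack complex. C1q is secreted mainly by macrophages and dendritic cells, properdin is released by neutrophils, monocytes and T cells, and inherited C1q deficiency is a strong risk factor for lupus in humans.

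In RefSeq's genes on GRCm38.p6, C1qb, C1qc and C1qa follow each other on chromosome 4 with no other protein-coding gene between them. The RefSeq promoter windows of C1qb and C1qc are shown because the C1q chains are the members whose signals were set against each other below, and that of Cd55 because it is the member that fell. Each window runs from 250 bases before to 50 bases after the gene's start, 5′ to 3′ on the gene's strand, and capitals mark the letters of a motif found by a search on both strands. C1qb lies on the minus strand (chr4:136886151-136886450), as do C1qc (chr4:136892865-136893164) and Cd55 (chr1:130462695-130462994).
C1qb: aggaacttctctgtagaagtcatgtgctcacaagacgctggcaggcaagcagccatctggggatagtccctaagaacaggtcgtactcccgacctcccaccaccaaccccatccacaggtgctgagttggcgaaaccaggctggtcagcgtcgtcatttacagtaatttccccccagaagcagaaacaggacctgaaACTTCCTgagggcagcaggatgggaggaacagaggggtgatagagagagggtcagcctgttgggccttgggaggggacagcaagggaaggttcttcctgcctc
C1qc: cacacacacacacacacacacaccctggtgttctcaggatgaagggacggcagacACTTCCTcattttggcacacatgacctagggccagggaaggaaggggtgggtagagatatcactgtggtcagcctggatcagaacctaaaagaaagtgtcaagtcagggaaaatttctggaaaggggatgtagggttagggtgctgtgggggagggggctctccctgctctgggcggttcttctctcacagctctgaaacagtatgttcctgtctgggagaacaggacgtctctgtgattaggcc
Cd55: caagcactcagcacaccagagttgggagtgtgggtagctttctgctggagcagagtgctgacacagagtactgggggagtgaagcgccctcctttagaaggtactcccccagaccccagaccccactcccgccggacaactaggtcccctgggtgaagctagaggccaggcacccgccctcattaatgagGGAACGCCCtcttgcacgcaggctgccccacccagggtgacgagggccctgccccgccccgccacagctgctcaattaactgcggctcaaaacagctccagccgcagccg

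The motifs searched were AGGAAGT, a core bound by the myeloid factor PU.1, GAAANNGAA, which resembles the interferon-stimulated response element, TTCNNNGAA, the gamma-activated site, and GGGNNTTCC, which resembles the NF-kB site. No window was available here for C1qa or Cfb, so that these members were not searched. The PU.1 core, read on the opposite strand as ACTTCCT, was found in the windows of C1qb and C1qc, with its first base at position -53 in C1qb and -195 in C1qc. It was present in 9.35% of 32851 promoter windows of the same length. Of the other motifs, GAAANNGAA was found in the window of Cd59a at position -187 and in 8.56% of all windows. TTCNNNGAA was present in 8.30% of all windows and in none of those named here, and no motif was found in the window of Cfp. GGGNNTTCC, read on the opposite strand as GGAACGCCC, was found in the Cd55 window at position -60 and in 5.82% of all windows. This motif was shortened by 1 letter after a first search, in which its longer form had no match in the Cd55 window, so that the match depends on the form chosen. A match is a string of letters and was not tested as a binding site.

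Signals are normalised log2 values on a scale that runs up to 15.09, and their median over the 6 mice was 6.72. A probe counted as detected at 6.9 or above, the level from which at least 95% of probes in each 0.1 bin had a detection p-value under 0.05 on the named arrays. Differences are TLR7tg minus B6, and a gene passed at an adjusted p under 0.05 by limma, adjusted over 16535 kept probes. Tlr7, the receptor for single-stranded RNA encoded by the transgene, was 13.80 ± 0.71 in TLR7tg and 9.13 ± 0.57 in B6 (SD, n = 3 each), with no overlap between the groups. Of 11 NK cell markers tested all 11 fell, where 6.97% of all genes did. Their mean signal per mouse ran from 7.58 to 8.53 in TLR7tg and from 10.78 to 10.91 in B6. Klrb1c, which encodes NK1.1, was 7.47 ± 0.42 in TLR7tg and 9.64 ± 0.59 in B6 (SD, n = 3 each). Ncr1, which encodes NKp46, Eomes and Itga2 lay below 6.9 in all 3 TLR7tg mice. These 3 entered the test through B6 mice only, and their place in the count supports nothing about the list. In these bulk samples, fewer cells of a type and less RNA per cell cannot be told apart.

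Among the 7 measured members Cfb rose and Cd55 fell in TLR7tg, and the other 5 did not pass. Over all 9173 genes tested 7.74% rose and 6.97% fell, so that 1 member in each direction is a share near the background. The mean was higher in TLR7tg for 6 of the 7 members, and for 4 of these the groups overlapped. The share of all genes with a higher mean was not counted. The members' median difference was 0.82 (0.68 without Cfb), against a median of -0.06 over all genes. Members were chosen with earlier results of these data known, so that these values do not show a shift of the list. Of the members, 2 lay higher in every TLR7tg mouse than in any B6 mouse and 1 lay lower, where 14.1% and 18.5% of all genes did. The signal reached 6.9 in all 6 mice for 5 members, while Cfb reached it in TLR7tg mice only and Cd59a in all 3 TLR7tg and 2 B6 mice. Cfb therefore entered the test through the TLR7tg mice alone, and its place in these counts supports nothing about the list.

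**Figure D1:**
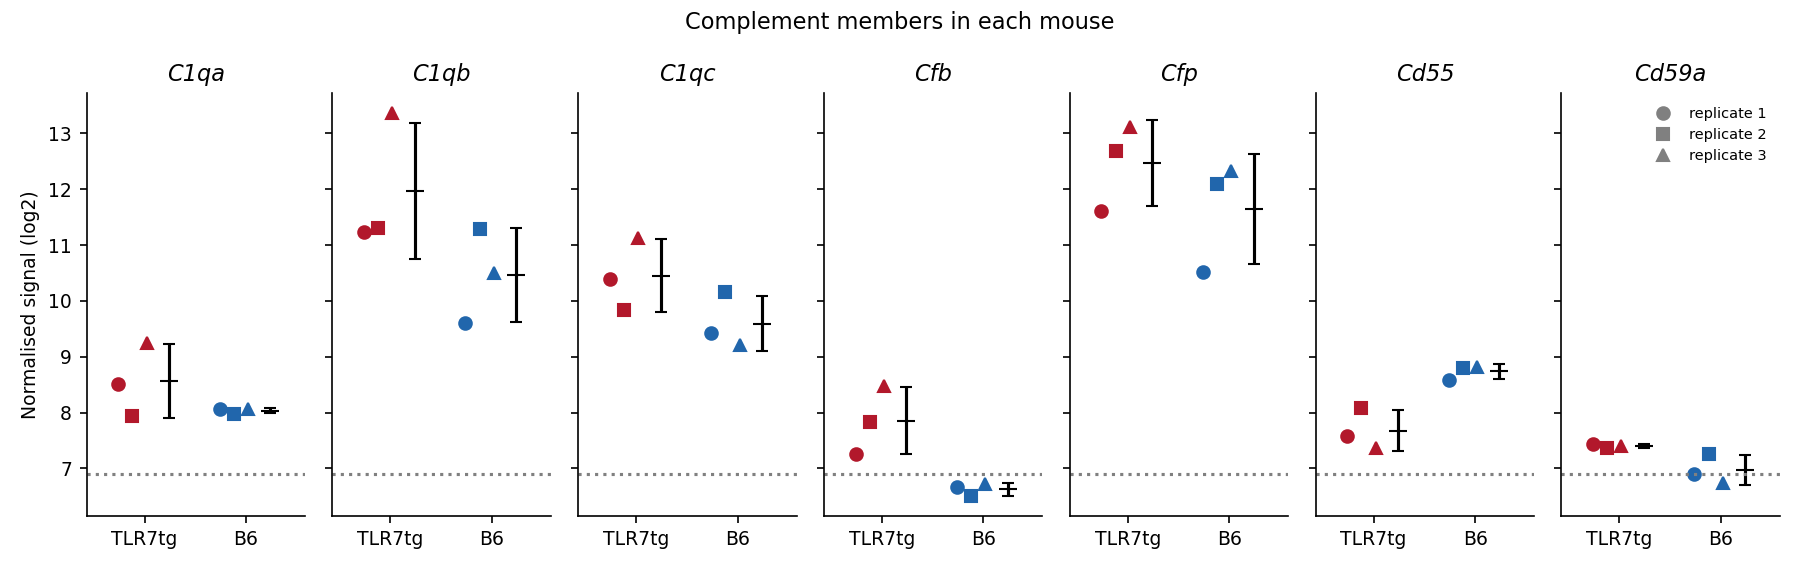
Normalised signal (log2, vertical axis) of the 7 complement members in each TLR7tg mouse (red) and each B6 mouse (blue), with symbols for the replicates, black bars for mean ± SD and a dotted line at the detection level of 6.9. Cfb and Cd59a lie higher in every TLR7tg mouse than in any B6 mouse, and Cd55 lies lower. Cd59a did not pass, and the B6 signals of Cfb are below the detection level. The C1q chains are highest in TLR7tg replicate 3.

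The C1q chains had higher means in TLR7tg mice, with overlapping groups and 1 high mouse. C1qa, the A chain, had signals of 8.52, 7.94 and 9.25 in TLR7tg replicates 1, 2 and 3, and of 8.06, 7.98 and 8.06 in B6 replicates 1, 2 and 3. The TLR7tg mice spread widely (SD 0.66), with replicate 2 below all B6 mice, while the B6 mice lay close together (SD 0.05). The difference was 0.53 (SE 0.30, 95% interval -0.14 to 1.20, limma adjusted p = 0.318). C1qb, the B chain, had 11.23, 11.30 and 13.37 in the TLR7tg mice, and 9.60, 11.28 and 10.50 in the B6 mice. B6 replicate 2 reached the level of TLR7tg replicates 1 and 2, and TLR7tg replicate 3 stood above all others. The difference was 1.51 (SE 0.59, 95% interval 0.17 to 2.84, limma adjusted p = 0.144), a 2.84-fold ratio that did not pass. On the named arrays its linear scanner signal, not normalised between arrays, was 11893 and 17522 on the 2 technical arrays of TLR7tg replicate 1 and 2016 and 2215 on those of B6 replicate 1.

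C1qc, the C chain, had 10.40, 9.83 and 11.13 in the TLR7tg mice and 9.42, 10.15 and 9.21 in the B6 mice. As for C1qb, TLR7tg replicate 3 was the highest mouse of all and replicate 2 was the highest B6 mouse, here above TLR7tg replicate 2. The difference was 0.86 (SE 0.35, 95% interval 0.07 to 1.65, limma adjusted p = 0.162). Without TLR7tg replicate 3 the differences of C1qa, C1qb and C1qc were 0.19, 0.80 and 0.52, and none of the 3 passed (limma adjusted p = 0.706, 0.305 and 0.390). With neighbouring mouse identifiers as a replicate block C1qb passed (limma adjusted p = 0.0427), and C1qa (0.138) and C1qc (0.128) did not.

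The chains were compared in their change, not in their level, since each has its own probe. The change of C1qa minus that of C1qb was -0.97 (SD of the within-mouse difference 0.70 in TLR7tg and 0.88 in B6). The change of C1qb minus that of C1qc was 0.65 (SD 0.70 in TLR7tg and 0.60 in B6), and the change of C1qa minus that of C1qc was -0.32 (SD 0.01 in TLR7tg and 0.54 in B6). Exact two-sided permutation tests gave p = 0.2, 0.4 and 0.4 in that order (0.4 for each after adjustment over the 4 pairs compared), but 3 against 3 mice allow no p below 0.1, so that no pair could pass and the tests do not show whether the chains changed alike. The comparison of Cfb with C3 could not be made without a C3 probe. Within the 3 pairs of mice with neighbouring identifiers, an alternative added after seeing the data, C1qa minus C1qb was -1.18, -0.06 and -1.68, C1qb minus C1qc was 0.66, 0.34 and 0.95, and C1qa minus C1qc was -0.52, 0.28 and -0.73. The sign was the same in every pair for the first 2 comparisons and not for the last, and the smallest p that an exact test over 3 pairs allows is 0.25. Over the 6 mice, the mean-centred profiles of C1qa and C1qc differed by a root mean square of 0.35, those of C1qb and C1qc by 0.63 and those of C1qa and C1qb by 0.81.

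Markers of the macrophages of the splenic red pulp did not move as one list beside C1q. Of 12 tested, 2 rose and 5 fell, where 7.74% and 6.97% of all genes did. The median of all 12 differences was -0.50. The 2 that rose were Adgre1 (1.86) and Treml4 (2.21), and Treml4 also counts among the monocyte markers that rose. The mean signal of the 12 per mouse ran from 8.77 to 9.14 in TLR7tg and from 8.90 to 9.70 in B6. The first 4 of the list were Spic, the transcription factor of these macrophages (0.51, not passed), the adhesion molecule Vcam1 (-2.23), the iron exporter Slc40a1 (-2.10) and the phagocytic receptor Mertk (-1.31), of which the last 3 fell. Cd163, Cd5l and Marco lay below 6.9 in all TLR7tg mice, and Cd5l, Marco and Siglec1 in all B6 mice. Of 13 monocyte markers tested 7 rose, where 7.74% of all genes did, and 6 did not pass. The mean signal of the 13 ran from 10.99 to 11.27 in TLR7tg and from 9.47 to 9.94 in B6. Csf1r, a growth factor receptor of monocytes and macrophages, rose. It was 12.64, 12.64 and 12.56 in the TLR7tg mice and 9.19, 10.84 and 11.22 in the B6 mice. Ly6c1 (0.05), Ccr2 (0.19) and Cx3cr1 (0.96), next in the list among those tested, did not pass. Of 7 dendritic cell markers 0 passed by limma (1 had an unadjusted p under 0.05), and their mean ran from 7.32 to 7.61 in TLR7tg and from 7.12 to 7.26 in B6. The part of these cells in the C1q signals was not tested.

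**Figure D2:**
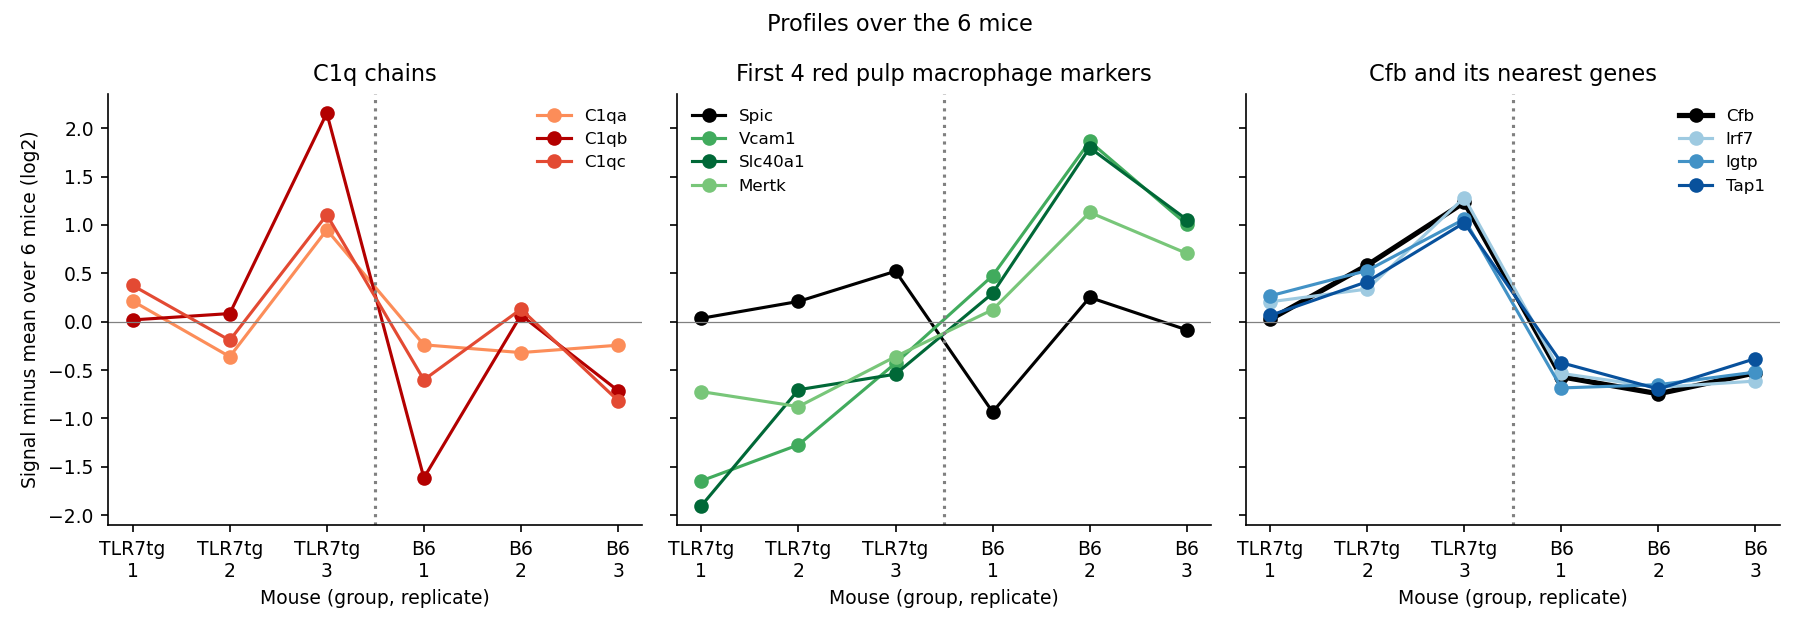
Signal minus a gene's mean over the 6 mice (log2, vertical axis) in each TLR7tg mouse and each B6 mouse for the C1q chains (left), the first 4 red pulp macrophage markers (middle) and Cfb with the 3 genes whose profiles were nearest to it (right). Lines join the values of 1 gene and carry no order of mice. The C1q chains peak in TLR7tg replicate 3, while Vcam1, Slc40a1 and Mertk lie lower in each TLR7tg mouse than in the B6 mice.

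Cfb, which encodes the factor B protease, rose. Its signal was 7.27, 7.83 and 8.48 in the TLR7tg mice and 6.68, 6.50 and 6.72 in the B6 mice. All 3 B6 mice lay below the detection level, so that only a bound can be given: Cfb was at least 1.94-fold higher in TLR7tg. The measured means were 7.86 ± 0.61 in TLR7tg and 6.63 ± 0.12 in B6 (SD, n = 3 each), a difference of 1.23 (SE 0.28, limma adjusted p = 0.0212). On the named arrays the linear scanner signal was 324 and 424 on the 2 technical arrays of TLR7tg replicate 1, with detection p-values of 0, and 97.0 and 106 on those of B6 replicate 1, with detection p-values of 0.351 and 0.215. These arrays share a slide, within which Cfb was at least 1.29-fold higher in TLR7tg, and in the remaining 4 mice it was at least 2.38-fold higher. Cfb did not pass when TLR7tg replicate 2 (limma adjusted p = 0.0684), B6 replicate 2 (0.0911) or B6 replicate 3 (0.0543) was left out, or when dim probes were kept in the test (0.0834). The alternatives gave Cfb adjusted p-values between 0.00224 and 0.0911.

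Cfp, which encodes properdin, did not pass. It had 11.61, 12.69 and 13.12 in the TLR7tg mice and 10.51, 12.10 and 12.33 in the B6 mice. Replicate 1 was the lowest of each group, and the groups overlapped. The difference was 0.82 (SE 0.51, 95% interval -0.33 to 1.97, limma adjusted p = 0.374). The named slide gave 1.1 and the remaining 4 mice gave 0.69. With that slide as a block Cfp passed (limma adjusted p = 0.0124), and it passed with neighbouring identifiers as a replicate block (limma adjusted p = 0.00747). Without B6 replicate 1 the difference was 0.25, and without TLR7tg replicate 1 it was 1.25 (limma adjusted p = 0.766 and 0.104). Of 14 neutrophil markers with a probe 10 were tested and 9 rose, where 7.74% of all genes did. Of the 9, only Csf3r reached 6.9 in all 6 mice, so that the count supports nothing about the list. The mean signal of the 10 was 11.22, 11.90 and 8.57 in the TLR7tg mice and 7.51, 7.30 and 6.86 in the B6 mice. Of 6 T cell markers tested 4 fell, where 6.97% of all genes did. Their mean signal per mouse ran from 7.92 to 8.18 in TLR7tg and from 9.21 to 9.52 in B6. Cfp was highest in TLR7tg replicate 3. In that mouse the neutrophil and monocyte means (8.57 and 10.99) were the lowest of the TLR7tg group, and the T cell mean (8.18) was the highest. The part of monocytes, neutrophils and T cells in the Cfp signal was not tested.

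**Figure D3:**
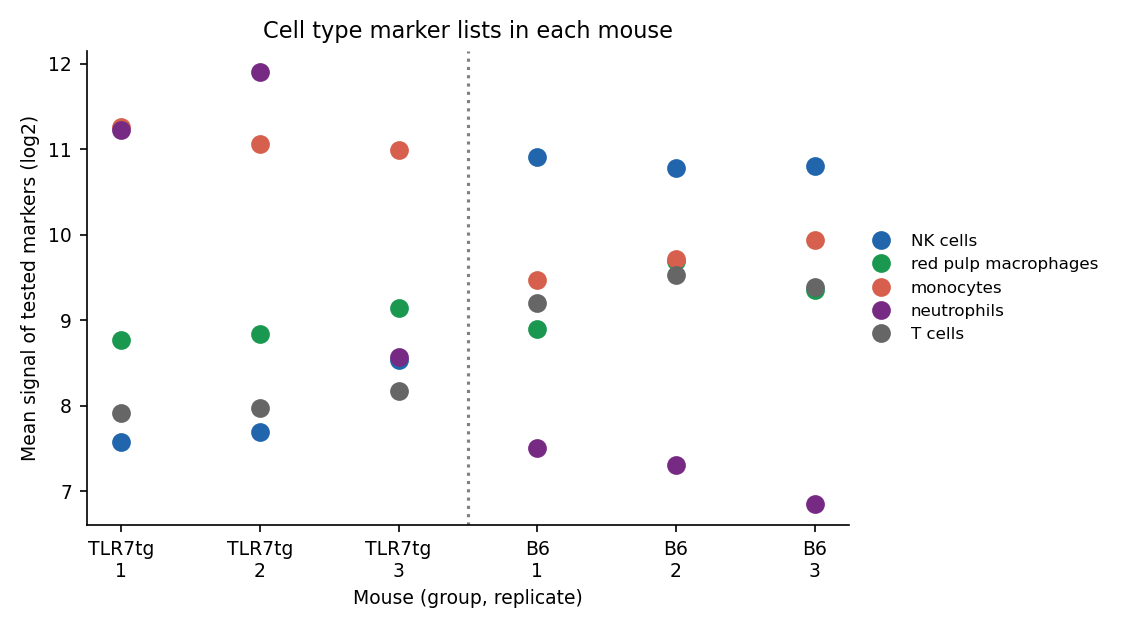
Mean signal of the tested markers of 5 cell type lists (log2, vertical axis) in each TLR7tg mouse and each B6 mouse. NK cell and T cell markers are lower in the TLR7tg mice, monocyte and neutrophil markers are higher, and red pulp macrophage markers overlap between the groups.

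Cd55, which encodes decay-accelerating factor, fell in TLR7tg. Its signal was 7.58, 8.09 and 7.37 in the TLR7tg mice and 8.59, 8.81 and 8.82 in the B6 mice. Every TLR7tg mouse lay below every B6 mouse, and all 6 were above the detection level. The means were 7.68 ± 0.37 in TLR7tg and 8.74 ± 0.13 in B6 (SD, n = 3 each), and the difference was -1.06 (SE 0.22, limma adjusted p = 0.0121), a 2.09-fold lower signal. Its linear scanner signal was 496 and 709 on the technical arrays of TLR7tg replicate 1, against 954 and 938 on those of B6 replicate 1. The named slide gave -1.02 and the remaining 4 mice -1.08. Cd55 did not pass when B6 replicate 2 was left out (limma adjusted p = 0.0591), and its alternatives gave adjusted p-values between 0.00388 and 0.0591. NK cell and T cell markers were lower in the same mice (T cell Cd3d by -2.42, limma adjusted p = 0.000322), and the part of these cells in this fall was not tested. The neighbouring paralogue Cd55b lay below 6.9 in all 6 mice.

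Cd59a, whose product blocks the terminal pore, had 7.43, 7.37 and 7.41 in the TLR7tg mice and 6.91, 7.26 and 6.75 in the B6 mice. The groups did not overlap, and the TLR7tg mice lay close together (SD 0.03, against 0.26 in B6). The difference was 0.43 (SE 0.18, 95% interval 0.02 to 0.85, limma adjusted p = 0.182) and did not pass. With background correction it was 0.83, which did not pass either (limma adjusted p = 0.125). Its paralogue Cd59b reached 6.9 in 1 B6 mouse only. The changes of the regulators differed by -1.49 (Cd55 minus Cd59a), with an exact permutation p = 0.1 (0.4 after adjustment over the 4 pairs compared). This is the smallest p that the design allows, so that the pair could not pass. Within the 3 pairs of neighbouring identifiers the value was -1.54, -0.83 and -2.11.

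Likeness of profiles was measured as the root mean square difference between mean-centred signals over the 6 mice, so that the group difference is part of it. Nearest to Cfb were Irf7, a transcription factor (0.14), Igtp, a GTPase (0.14), and Tap1, a subunit of the peptide transporter for MHC class I (0.14). Nearest to Cd55 were Shisa5, Chd2 and Tesk1 (0.12 each). Nearest to Cfp were Ftl1, the ferritin light chain (0.17), Pla2g15, a lysosomal phospholipase (0.19), and Pgs1 (0.20). Nearest to C1qa was Dnase1l3, a secreted nuclease (0.08), followed by Timm10b and Il3ra (0.16 each). C1qb was nearest to Ctsz, a cathepsin (0.38), Ms4a7 (0.41) and Esam (0.47), and C1qc to Txn1 (0.19), Ehd1 (0.22) and Sema7a (0.25). Cd59a was nearest to Lmnb1 (0.07), Gins2 and Cnr2 (0.09 each). No member was among the 3 nearest genes of another, and 41 genes were nearer to C1qb than C1qc was. To C1qa, 425 genes were nearer than C1qc, and 8367 genes, among 9173 tested, were nearer than C1qb. The measure depends on the size of a change as well as on its shape. A flat profile lay 0.46 from C1qa and 1.14 from C1qb. A gene that does not change is therefore nearer to C1qa than C1qb is (0.81). These counts do not show that the chains' profiles differ in shape.

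Other genes of the cascade moved in both directions. Of 62 listed genes 54 had a probe, of which 27 never reached 6.9 in any mouse, 9 reached it in 1 or 2 mice and 18 were tested. Of these 18, 5 rose and 2 fell, beside the background of 7.74% and 6.97% given above. The other 11 did not pass, and the median of all 18 differences was 0.16. Of the 5 that rose, 3 (C4b, Lrp1 and Scarf1) entered through TLR7tg mice only, so that the count and the median support nothing about the list. Among the 11 detected in all 6 mice 1 rose (Lair1) and 1 fell (Fcna), where 7.25% and 6.47% of the 6926 genes detected in all 6 mice did.

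In the classical and lectin pathways C4a and C4b, near-identical genes of component C4 whose probes may share transcripts, rose. C4a had 7.74, 8.88 and 9.18 in the TLR7tg mice and 6.77, 6.96 and 7.03 in the B6 mice, a difference of 1.68 (SE 0.33, limma adjusted p = 0.0108). C4b had 7.28, 7.98 and 7.99 in the TLR7tg mice, lay below the detection level in all B6 mice, and was at least 1.80-fold higher (limma adjusted p = 0.0185). C4a did not pass without a filter on dim probes (limma adjusted p = 0.0606) or without TLR7tg replicate 2 (0.0535). C4b did not pass without a filter (0.0591), without TLR7tg replicate 2 or 3 (0.0724 and 0.0587) or without B6 replicate 2 (0.0884). C2, the gene next to Cfb on chromosome 17, had a difference of -0.21 and did not pass.

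Fcna, which encodes ficolin A, a lectin pathway recognition molecule, fell the most among these 18 genes. It had 7.67, 7.18 and 8.42 in the TLR7tg mice and 10.00, 10.73 and 9.95 in the B6 mice. The groups lay far apart, and the difference was -2.47 (SE 0.33, limma adjusted p = 0.00174), a 5.52-fold lower signal. Fcna also stands in the red pulp macrophage list, so that its fall and those of Vcam1, Slc40a1 and Mertk are not separate lists. The initiating proteases C1ra, C1rb, C1s1 and C1s2 and the mannose-binding lectin genes Mbl1 and Mbl2 lay below 6.9 in all 6 mice.

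In the terminal pathway C6, a component of the membrane attack complex, fell. It had 6.77, 6.59 and 6.98 in the TLR7tg mice and 7.52, 7.78 and 7.92 in the B6 mice, a difference of -0.96 (SE 0.19, limma adjusted p = 0.0103). Without B6 replicate 2 it did not pass (limma adjusted p = 0.0528). C8b (-0.02) and C8g (-0.26) did not pass, nor did Cfi (-0.25), a protease that inactivates C3b, or the regulator genes Cr1l (0.13), the rodent membrane inhibitor Crry, and C1qbp (-0.19).

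Of 8 receptor genes tested 3 rose, where 7.74% of all genes did, and 5 did not pass. Of these 3, Lrp1 and Scarf1 entered the test through TLR7tg mice only. Lair1, an inhibitory collagen receptor that also binds C1q, had 10.05, 9.17 and 9.76 in the TLR7tg mice and 7.77, 7.76 and 7.86 in the B6 mice, a difference of 1.86 (SE 0.23, limma adjusted p = 0.00130). With the mean of its probes in place of the brightest the difference of Lair1 was 1.05 (limma adjusted p = 0.00532), below that of C4a (1.44). Lrp1 and Scarf1, scavenger receptors that bind C1q among other ligands, lay below the detection level in all B6 mice and were at least 1.42-fold and 1.41-fold higher (limma adjusted p = 0.0138 and 0.00980). Lrp1 did not pass without B6 replicate 2 (limma adjusted p = 0.0748). The integrin genes of complement receptors 3 and 4, Itgam (-0.05), Itgax (0.18) and Itgb2 (0.36), did not pass, nor did Cd93 (0.77) and Calr (0.60). The receptor genes C3ar1, Cr2 and Vsig4 lay below 6.9 in all 6 mice, and C5ar1 reached it only in TLR7tg replicate 1, at 7.32.

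**Figure D4:**
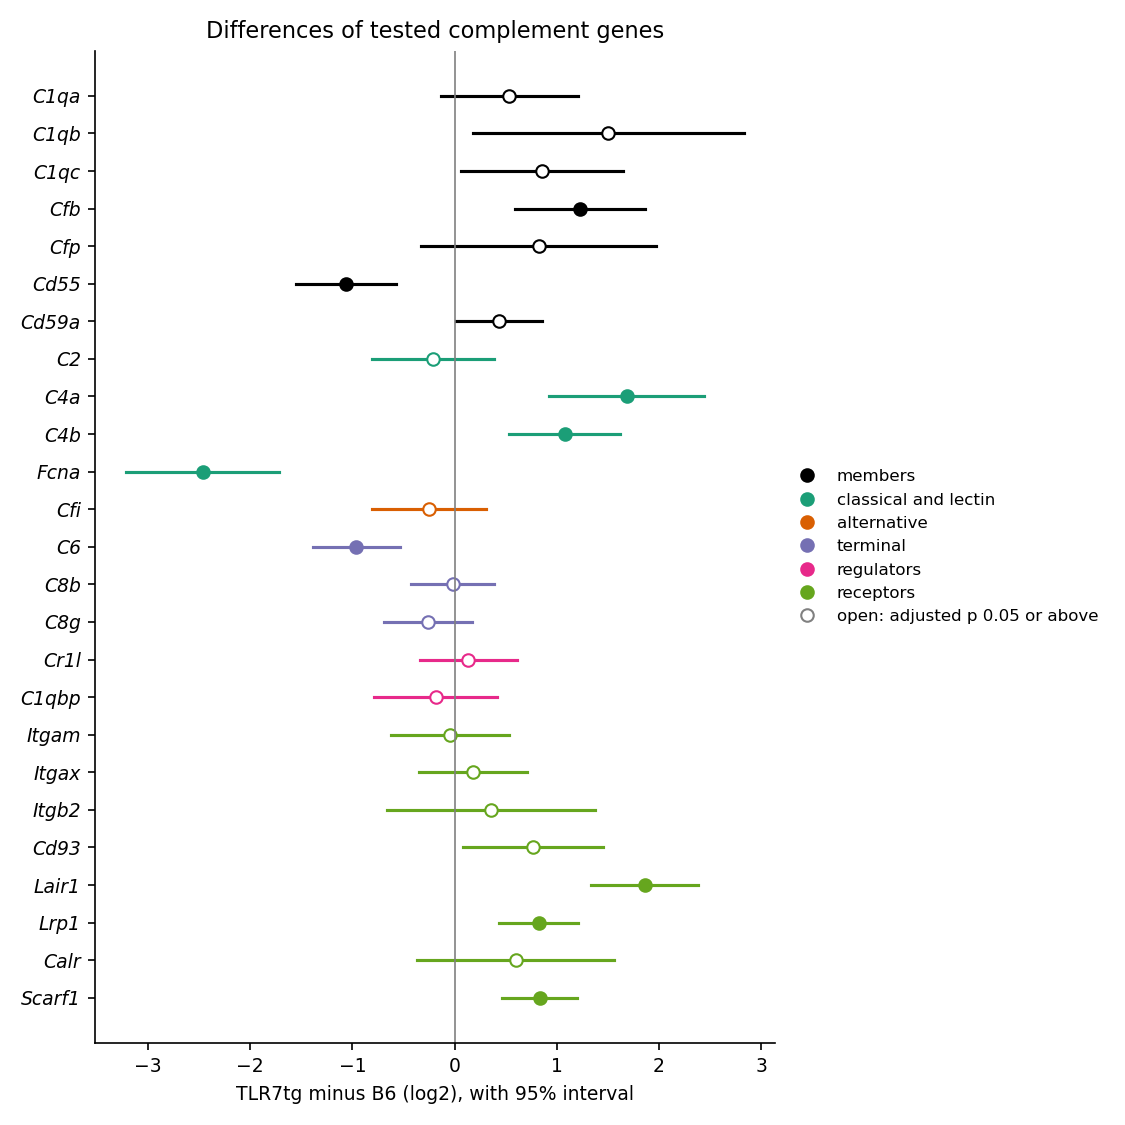
TLR7tg minus B6 (log2, horizontal axis) with 95% intervals from limma, not adjusted for multiple tests, for the 7 members (black) and the 18 other tested complement genes, coloured by role. Filled points passed at an adjusted p under 0.05. Fcna (-2.47) and Lair1 (1.86, or 1.05 as the mean of its probes) lie at the ends. For Cfb, C4b, Lrp1 and Scarf1 the B6 signals were below the detection level, and the points show measured signals.

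With background correction (normexp, offset 16) C6, which reached 6.9 in 1 TLR7tg mouse, differed by -1.77, Cd55 by -1.40 and C1qb by 1.55. For Cfb, C4b, Lrp1 and Scarf1 no corrected difference is given, since every B6 signal was below the detection level.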

How the data were processed

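RNA of 6 mouse spleen samples, 3 TLR7tg and 3 B6, was measured on Illumina BeadArrays, after Trizol extraction and TotalPrep labelling per the labels' protocols. The deposited value table holds log2 signals of 45281 probes. Its sorted columns differ by at most 0.0085, as quantile normalisation by the authors would leave them. No source used here names its tool. Per the labels, replicate 1 of each group averages 2 technical arrays, and the title of TLR7tg replicate 1 carries the mouse identifier of B6 replicate 1. A second deposited table holds linear intensities of single arrays, not normalised, and a detection p-value for each probe, per the file headers. Its other 8 columns could not be tied to a mouse and stayed out of every step. For the mice with named arrays, deposited values followed the log2 scanner signals with Spearman correlations across probes of 1.00 and slopes of 0.601 (TLR7tg) and 0.706 (B6), so that folds hold on the deposited, narrower scale only.

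Probes that reached 6.9 in 3 or more mice were kept (16535, of which 13926 have 1 gene). In the platform annotation 34885 probes had 1 symbol, 18 had several and 10378 had none, and the identifiers of 34807 matched RefSeq GRCm38.p6 and changed 0 symbols. A gene was read through its brightest kept probe. Groups were compared with limma 3.58.1 in R 4.3.3 (lmFit, eBayes), with Benjamini-Hochberg adjustment over kept probes, after a test on simulated data. Where every mouse of a group lay below 6.9, the fold is a bound: the brighter group's mean against 6.9. Each mouse gives 1 value, and the number of arrays limits the precision. The replicate block was built from the mouse identifiers, as the labels state no pairing. Mice with neighbouring identifiers deviated together from their group means over the kept probes (correlations across probes 0.63, 0.12 and 0.45). The 0.63 belongs to replicate 1 of each group, the mice of the named slide. Slide and neighbouring identifiers cannot be told apart in that pair, which both blocks share. TLR7tg replicate 2 correlated more with B6 replicate 3 (0.21) than with its neighbour.

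Genes named are the members, complement genes that passed or that a count covers and the 3 nearest profiles of each member. From a marker list, up to 4 genes with a probe were named in list order. Adgre1, Treml4 and Csf3r were named beyond this rule, after their values were seen. Genes listed below the detection level were named after their values were seen. Members and lists were chosen with earlier results of these data known. Of the 4 promoter motifs, GAAANNGAA and the NF-kB-like GGGNNTTCC were each shortened by 1 letter after a first search with longer forms, and the results of both forms were known when these were kept. Alternatives were other filters, probe rules, weights, blocks, background correction and centring, and each mouse left out.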

Additional observations from a re-analysis of the deposited data

How the results depend on the processing

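Under the 15 alternatives run, no difference of a member changed sign. With neighbouring identifiers as a replicate block 1118 genes were higher and 1166 lower in TLR7tg (against 710 and 639), 3 members were higher, and C1qb (1.51) and Cfp (0.82) passed. With the named slide as a block 1083 genes were lower, 2 members were higher and Cfp (0.82) passed. Without a filter on dim probes, where more probes share the adjustment, 0 members were higher by limma (2 at an unadjusted p under 0.05), Cfb (1.23) did not pass and 3 of the other complement genes were higher. With detection in all 6 mice Cfb and Cd59a were not tested, 0 members were higher by limma (2 at an unadjusted p under 0.05), and 1 other complement gene was higher and 1 lower. Leaving out each mouse in turn gave 422 to 754 genes higher and 340 to 629 lower, with the lowest counts without B6 replicate 2, and 412 lower without B6 replicate 3. It gave 0 to 1 member higher and 0 to 1 lower by limma (1 to 4 and 1 at an unadjusted p under 0.05), and 3 to 5 other complement genes higher and 1 to 2 lower. Cfb then ran from 0.92 to 1.52, as measured against B6 signals below the detection level, and Cd55 from -1.27 to -0.91. The cause of these shifts was not tested beyond the smaller number of mice or genes. Probe signals near the detection level limit what Cfb, C4b, Lrp1 and Scarf1 can show in B6.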
